A study of Mus musculus with 6 samples.

Results

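The mitochondrial carriers and uncoupling proteins are the genes of the Slc25 family, and they were taken from the genes of the deposited count table whose symbol begins with Slc25a and a number or is Ucp1, Ucp2 or Ucp3. Described here are 43 of the 14774 genes in the table, and 41 of them had enough counts to be tested. MA-10 is a line of mouse tumor Leydig cells, the steroid-producing cells of the testis, and STARKO1 is a single clone made from it with CRISPR/Cas9, in which a frameshift deletion in exon2 disrupts Star, the gene of the steroidogenic acute regulatory protein. Total RNA was sequenced from 3 libraries of wild-type MA-10 cells and 3 libraries of STARKO1 cells, all grown normally and untreated, with no hormone added. The comparison asks how the expression of carrier genes differs between the line without STAR and the line it came from. Because STARKO1 is 1 clone, differences between this clone and any other clone of MA-10 cells cannot be told apart from the loss of STAR. The study's methods speak of independent experiments in general without naming the sequencing, and the labels do not say whether the 3 libraries of a line came from separate cultures, so the p values measure only the spread between these libraries, which may be technical.

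The inner mitochondrial membrane is impermeable to most metabolites, and the carriers are the proteins that move them across it. They share a fold built of repeated pairs of membrane helices, and each member exchanges or imports its own substrates, such as ADP for ATP, phosphate, citrate, amino acids, cofactors or metals. The uncoupling proteins are members of the same family, the first of which lets protons back into the matrix and so turns the proton gradient into heat. In steroidogenic cells, the mitochondria hold the enzyme that cleaves the side chain of cholesterol, and STAR governs the entry of cholesterol into them.

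The libraries held 14114351 to 19530062 counts. Star had 60.9, 109 and 61.4 CPM (counts relative to a library size scaled by the TMM method) in the 3 MA-10 libraries and 2.06, 2.71 and 2.02 CPM in the 3 STARKO1 libraries, a log2 fold change of -5.09 ± 0.33 (SE, adjusted p = 0.00121, edgeR quasi-likelihood test), so that the targeted gene followed the labels. All 10 Leydig cell markers were above 3 counts in every library, with a summed level of 1603 to 2149 CPM in MA-10 cells and 1452 to 1501 CPM in STARKO1 cells. Star and Hsd3b1 passed the test as lower in the latter. Without passing it, Cyp11a1 and Lhcgr were lower and Nr5a1 and Cyp17a1 higher in every STARKO1 library than in any MA-10 library. Of the markers of other testis cell types, Sox9, Amh, Wt1, Dazl, Sycp3, Prm1, Ptprc, Adgre1, Kdr and Acta2 were not in the table. The germ cell marker Ddx4 and the macrophage markers each summed to at most 9.85 CPM in any library. Amhr2, which Leydig cells also express, ranged from 31.3 to 118 CPM in MA-10 cells and from 165 to 198 CPM in STARKO1 cells. The endothelial markers summed to 26.4 to 41.5 CPM in MA-10 cells and 118 to 124 CPM in STARKO1 cells, almost all from Cdh5. The peritubular and muscle markers summed to 13 to 20.5 CPM and 1.72 to 2.59 CPM. MA-10 replicate 1 differed from MA-10 replicates 2 and 3 and was closer to the STARKO1 libraries. Over all well-expressed genes its log2 CPM correlated with MA-10 replicates 2 and 3 at a Pearson r of 0.802 and 0.874, and with the STARKO1 libraries at 0.949 to 0.955. The 7SL RNAs took 1.81% of the counts in this library, 14.4% and 6.63% in MA-10 replicates 2 and 3, and 1.82% to 2.37% in STARKO1 cells, and the part of this difference in the results was not tested. Test results are therefore given with and without MA-10 replicate 1.

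Between MA-10 and STARKO1 cells, 6 of the 41 carrier genes tested were differentially expressed. Ucp2, the carrier Slc25a39, which is required for glutathione import into mitochondria, and the pyrimidine nucleotide carrier Slc25a33 were lower in STARKO1 cells, by 5.29-fold, 2.63-fold and 2.28-fold in the ratio of mean CPM. Slc25a45, the glutamate carrier Slc25a18 and the basic amino acid carrier Slc25a29 were higher, by 3.01-fold, 2.44-fold and 2.30-fold. These 6 are 14.6% of the tested carriers, and 9.04% of all 11939 genes tested were differentially expressed at the same threshold, an adjusted p under 0.05 in edgeR's quasi-likelihood test. By direction, 4.3% of all genes were higher and 4.74% were lower. The median log2 fold change of the carriers was 0.12, against -0.05 over all tested genes, with 22 carriers above 0, 19 below it and 26 within 0.5 of it. In 14 carriers, or 34.1%, the 3 libraries of one line all lay above those of the other, which was the case in 42.5% of all genes.

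Leaving out MA-10 replicate 1 changed the count more than any other step. Without it, 29 of the 41 carriers were differentially expressed, 18 higher and 11 lower in STARKO1 cells, or 70.7% of the carriers against 65.7% of all genes tested. All 6 genes named above were among the 29. In 30 of the 41 carriers, MA-10 replicate 1 was nearer to the STARKO1 mean than either of the other MA-10 libraries. In the 6 genes this library lay on the same side of the STARKO1 libraries as the other MA-10 libraries. This is no separate support, because the genes were called with this library in the fit and their groups did not overlap. Leaving out any other single library left between 1 and 3 of the 6 genes past the threshold, and Ucp2 was past it each time.

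**Figure D1:**
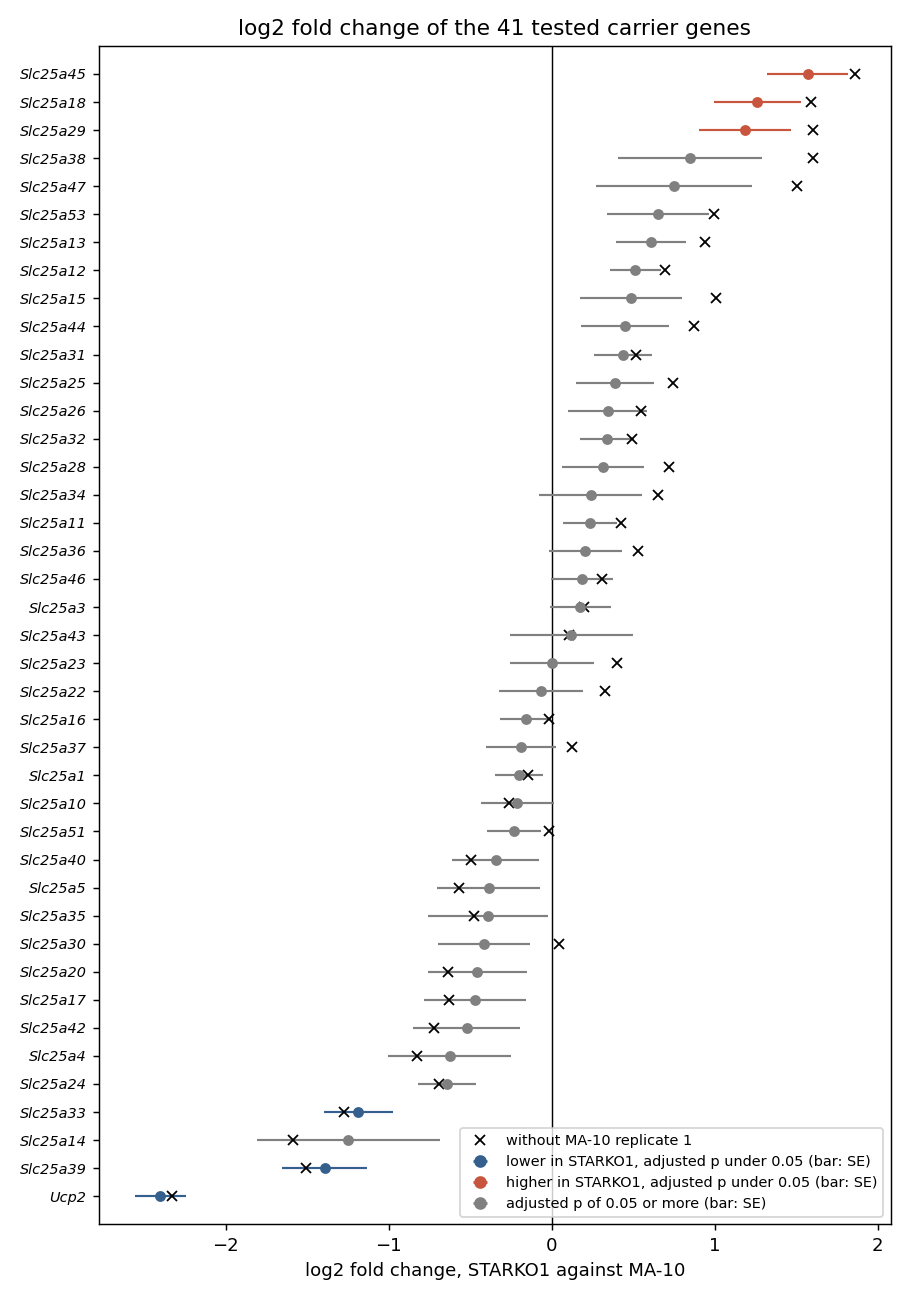
log2 fold change of each of the 41 tested carriers, STARKO1 against MA-10 cells, with horizontal bars for the SE (circles, 3 libraries per line) and the estimate without MA-10 replicate 1 (crosses). Colored circles are the 6 genes with an adjusted p under 0.05, from Ucp2 at -2.40 to Slc25a45 at 1.57, and most crosses for genes above 0 lie to the right of their circles.

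The start sites of the genes with the strongest changes in each direction are shown because they differ in base composition. Each line gives 250 bases before to 50 bases after the start of the gene on the sense strand, from RefSeq on GRCm38, with matches to the GC box (GGGCGG) and the TATA box (TATAAA) on either strand in capitals.
Ucp2, chr7:100493108-100493407, plus strand: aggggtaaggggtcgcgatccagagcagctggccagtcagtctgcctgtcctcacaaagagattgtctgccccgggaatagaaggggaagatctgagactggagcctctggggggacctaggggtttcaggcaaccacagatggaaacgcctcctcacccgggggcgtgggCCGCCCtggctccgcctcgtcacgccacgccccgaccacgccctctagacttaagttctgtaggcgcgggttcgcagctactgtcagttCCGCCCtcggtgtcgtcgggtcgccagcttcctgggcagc
Slc25a39, chr11:102407468-102407767, minus strand: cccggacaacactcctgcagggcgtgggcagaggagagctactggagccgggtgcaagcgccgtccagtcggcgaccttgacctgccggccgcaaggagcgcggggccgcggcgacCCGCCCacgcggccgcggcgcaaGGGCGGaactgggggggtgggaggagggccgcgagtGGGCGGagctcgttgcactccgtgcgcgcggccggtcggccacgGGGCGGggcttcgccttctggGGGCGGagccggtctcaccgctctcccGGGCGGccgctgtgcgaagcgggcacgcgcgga
Slc25a18, chr6:120773518-120773817, plus strand: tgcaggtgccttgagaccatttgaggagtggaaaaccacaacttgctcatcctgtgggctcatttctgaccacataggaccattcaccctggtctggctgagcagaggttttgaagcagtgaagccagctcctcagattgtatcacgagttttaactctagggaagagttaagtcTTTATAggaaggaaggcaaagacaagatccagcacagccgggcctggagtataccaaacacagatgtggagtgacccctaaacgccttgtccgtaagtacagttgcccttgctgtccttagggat
Slc25a45, chr19:5877572-5877871, plus strand: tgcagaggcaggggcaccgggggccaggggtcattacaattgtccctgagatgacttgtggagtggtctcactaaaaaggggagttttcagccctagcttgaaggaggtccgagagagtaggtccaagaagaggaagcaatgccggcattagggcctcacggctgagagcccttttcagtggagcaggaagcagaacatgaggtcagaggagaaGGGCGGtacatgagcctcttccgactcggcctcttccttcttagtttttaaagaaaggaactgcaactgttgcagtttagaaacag
The windows of Ucp2 and Slc25a39, both lower in STARKO1 cells, held 21 and 45 CpG dinucleotides, with 2 and 6 GC boxes. The windows of Slc25a18 and Slc25a45, both higher, held 4 and 7 CpG dinucleotides, and there was 1 GC box in the latter and 1 TATA box in the former. This contrast did not extend to the other changed genes with a window, since Slc25a29, which was higher, had 32 CpG dinucleotides and Slc25a33, which was lower, had 30. The start used for Slc25a39 lies 429 bases from the 5′ end of the gene in the GENCODE annotation and that of Slc25a18 lies 190 bases from it, so these windows may miss another start.

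RefSeq windows were matched for 34 of the 43 carriers by symbol. The start used for Slc25a47 lies 15083 bases from the 5′ end of the gene, so its window may miss another start. The median number of CpG dinucleotides was 18.5 in the 34 windows, 21 in the windows of all tested genes and 7 in all 32851 windows. Of the motifs searched on both strands, the GC box was found in 30 of the 34 carrier windows and in 64.0% of the windows of tested genes, the CCAAT box (CCAAT) in 16 and 38.7%, the E-box (CACGTG) in 6 and 10.2%, the TATA box in 1 and 6.7%, the cAMP response element (TGACGTCA) in 1 and 3.09%, and the core of the NRF1 motif (GCGCANGCG) in 2 and 14.4%. Over all 32851 windows the shares were 35.7% for the GC box, 37.4% for the CCAAT box, 7.15% for the E-box, 13.6% for the TATA box, 1.79% for the cAMP response element and 6.25% for the NRF1 core. The SF-1 half-site (CAAGGTCA), named for the steroidogenic factor, was in none of the 34 windows, in 1.1% of the windows of tested genes and in 1.56% of all windows. These matches describe letters in the windows and not binding.

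Among the uncoupling proteins and their nearest relatives, 1 of 3 tested genes passed the test, and it was Ucp2 (chr7:100493337-100502020, GRCm38, plus strand), which encodes a protein that is widely expressed and exports small carboxylates from mitochondria. Ucp2 had 28.5, 31.5 and 27.8 CPM in the 3 MA-10 libraries and 5.51, 5.36 and 5.73 CPM in the 3 STARKO1 libraries. The groups were far apart, and MA-10 replicate 1 lay between the other libraries of its line. The log2 fold change was -2.40 ± 0.15 (SE, adjusted p = 0.00121, edgeR quasi-likelihood test) and -2.33 ± 0.12 without MA-10 replicate 1 (adjusted p = 1.1e-05). Ucp2 shares 305 bases of exon with Dnajb13 on the opposite strand, and Dnajb13 had 1 to 5 counts in a library. How reads of the shared bases were assigned was not tested.

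Ucp1, the uncoupling protein of brown fat, and Ucp3, that of muscle, were not in the table, which lists only genes with at least 10 counts in total. Slc25a27, a relative found mainly in brain, had 6, 1 and 6 counts in MA-10 cells and 9, 3 and 5 counts in STARKO1 cells, too few to be tested. Slc25a14, another relative found mainly in brain, had 0.916, 4.16 and 2.99 CPM in MA-10 cells and 1.204, 0.766 and 1.35 CPM in STARKO1 cells. MA-10 replicate 1 fell among the STARKO1 libraries, so that the groups overlapped, and the log2 fold change of -1.25 ± 0.56 did not pass the test (adjusted p = 0.152, edgeR quasi-likelihood test), whereas it was -1.59 ± 0.31 without MA-10 replicate 1 (adjusted p = 0.00252). Slc25a30, the kidney mitochondrial carrier, had 131, 63.7 and 75.03 CPM in MA-10 cells and 71.6, 68.2 and 62.6 CPM in STARKO1 cells. Here MA-10 replicate 1 was above every other library, and the log2 fold change moved from -0.42 ± 0.28 (adjusted p = 0.304) to 0.05 ± 0.13 without it (adjusted p = 0.767).

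**Figure D2:**
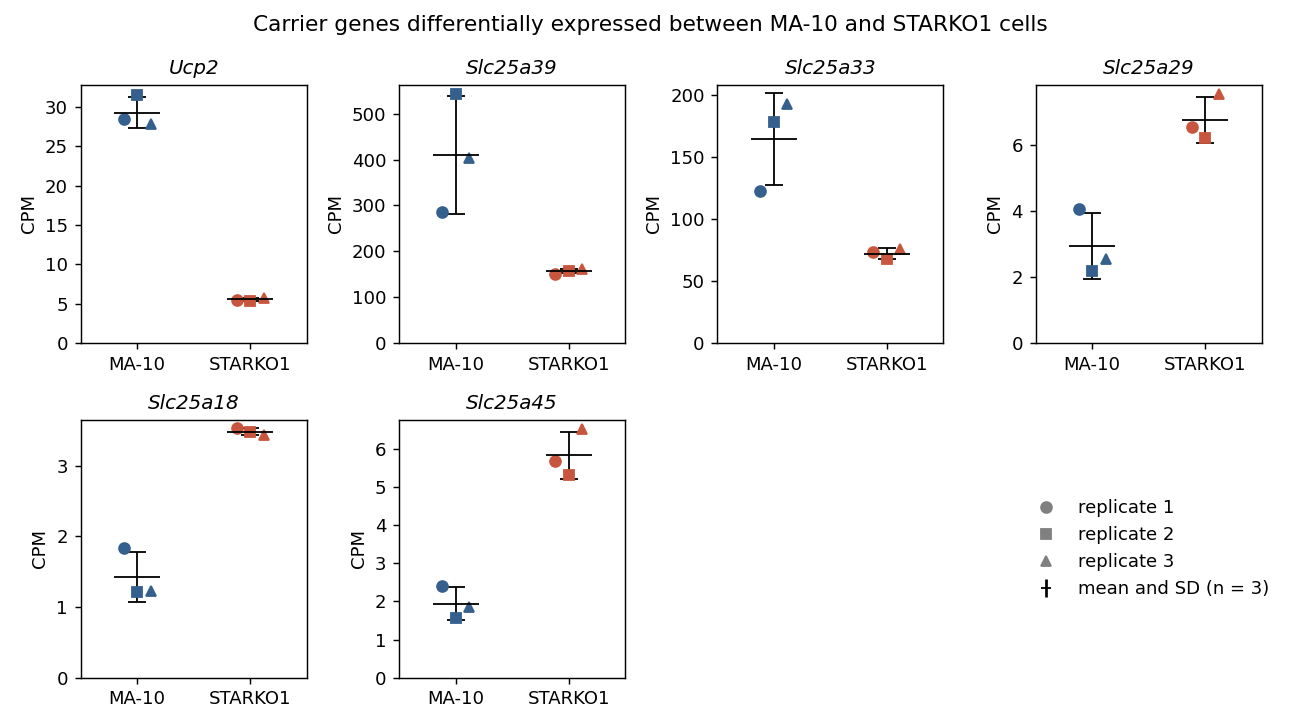
CPM in each library of the 6 differentially expressed carriers, MA-10 in blue and STARKO1 in red, with symbols for the replicate number and horizontal lines with bars for the mean and SD of 3 libraries. In each gene the 3 libraries of one line lie above the 3 of the other; MA-10 replicate 1 is the nearest MA-10 library to STARKO1 in all but Ucp2.

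The carriers of nucleotides and cofactors formed the largest group, with 14 tested genes, of which 1 fell and 13 did not pass the test. Slc25a33 (chr4:149744036-149774277, minus strand), which imports pyrimidine nucleotides used for mitochondrial DNA and RNA, had 122, 178 and 193 CPM in MA-10 cells and 73.0, 67.3 and 75.96 CPM in STARKO1 cells. The lowest MA-10 library, replicate 1, was still above every STARKO1 library. STARKO1 cells differed by a log2 fold change of -1.19 ± 0.21 (SE, adjusted p = 0.0247, edgeR quasi-likelihood test), and -1.27 ± 0.11 without MA-10 replicate 1 (adjusted p = 5.05e-05). Leaving out any other library gave an adjusted p between 0.0549 and 0.153. Slc25a33 shares 281 bases of exon with a noncoding gene on the opposite strand that was not in the table, and whether the counting used strand is not given in the sources used here. Its relative Slc25a36, which carries the same kind of substrate, had 31.6, 19.1 and 22.5 CPM in MA-10 cells and 29.5, 30.2 and 24.8 CPM in STARKO1 cells. The ranges of Slc25a36 overlapped, and its log2 fold change was 0.21 ± 0.22 (adjusted p = 0.507), but without MA-10 replicate 1 it passed the test as higher (0.53 ± 0.15, adjusted p = 0.0127).

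The ADP/ATP carriers exchange cytosolic ADP for ATP made in the matrix, and Slc25a4 and Slc25a5 were the most abundant members. Their estimated counts departed from whole numbers by over 0.1 in a library, as did those of Slc25a3, Slc25a36, Slc25a37, Slc25a39 and Slc25a40, so reads shared with similar sequences may have been divided before the table was made, and values of these 7 genes are less certain. Slc25a4, the form typical of heart and muscle, had 523, 1492 and 901 CPM in MA-10 cells and 622, 640 and 629 CPM in STARKO1 cells. Slc25a5, the form typical of dividing cells, had 327, 745 and 603 CPM in MA-10 cells and 418, 426 and 438 CPM in STARKO1 cells. In both genes the STARKO1 libraries lay close together, between MA-10 replicate 1 and the other MA-10 libraries. The log2 fold changes were -0.62 ± 0.38 for Slc25a4 (adjusted p = 0.256, edgeR quasi-likelihood test) and -0.39 ± 0.31 for Slc25a5 (adjusted p = 0.384). Without MA-10 replicate 1 they were -0.83 ± 0.19 (adjusted p = 0.00496) and -0.57 ± 0.12 (adjusted p = 0.00396). Slc25a31, the form known from male germ cells, had 20.9, 25.2 and 17.96 CPM in MA-10 cells and 29.0, 30.6 and 27.2 CPM in STARKO1 cells. All STARKO1 libraries were above all MA-10 libraries, but the log2 fold change of 0.44 ± 0.18 did not pass the test (adjusted p = 0.122), and it was 0.52 ± 0.15 without MA-10 replicate 1 (adjusted p = 0.0161). The germ cell gene Ddx4 was between 1.91 and 3.55 CPM in every library.

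The ATP-Mg/phosphate carriers, which adjust the adenine nucleotide pool of the matrix and have a calcium-binding domain, did not move together. Slc25a24 had 56.0, 78.3 and 75.2 CPM in MA-10 cells and 44.1, 46.8 and 43.4 CPM in STARKO1 cells, with every STARKO1 library below every MA-10 library. Its log2 fold change of -0.64 ± 0.18 missed the threshold (adjusted p = 0.0631, edgeR quasi-likelihood test) and passed it without MA-10 replicate 1 (-0.69 ± 0.10, adjusted p = 0.00063). Slc25a25 had a log2 fold change of 0.39 ± 0.24 and Slc25a23 one of 0.00 ± 0.26, and both had overlapping groups. Both passed the test as higher without MA-10 replicate 1 (Slc25a25 0.75 ± 0.15, adjusted p = 0.00251, and Slc25a23 0.40 ± 0.14, adjusted p = 0.0388). The other tested members of this group were Slc25a42, which imports coenzyme A, Slc25a16, also linked to coenzyme A, Slc25a17, a peroxisomal carrier of cofactors, Slc25a26, which imports S-adenosylmethionine, Slc25a32, linked to folate and FAD, and Slc25a51, which imports NAD. Their log2 fold changes lay between -0.52 for Slc25a42 and 0.34 for Slc25a26, and none passed the test. Without MA-10 replicate 1, Slc25a42 (-0.72 ± 0.15, adjusted p = 0.00313) and Slc25a17 (-0.63 ± 0.19, adjusted p = 0.0187) were lower, Slc25a32 (0.49 ± 0.15, adjusted p = 0.0169) was higher, and Slc25a16, Slc25a26 and Slc25a51 did not pass.

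Among the carriers of phosphate, metals and glutathione, 1 of 5 genes fell and none rose. Slc25a39 (chr11:102402985-102407946, minus strand) had 286, 544 and 404 CPM in MA-10 cells and 151, 157 and 161 CPM in STARKO1 cells. The MA-10 libraries differed widely among themselves, and all were above the STARKO1 libraries. The log2 fold change was -1.39 ± 0.26 (SE, adjusted p = 0.0280, edgeR quasi-likelihood test) and -1.504 ± 0.13 without MA-10 replicate 1 (adjusted p = 4.95e-05). Without MA-10 replicate 2, the highest library, the adjusted p was 0.0406, and without MA-10 replicate 3 or a STARKO1 library it was between 0.101 and 0.163. Slc25a40, the close relative that can stand in for it, had a log2 fold change of -0.34 ± 0.27 (adjusted p = 0.363), with values from 7.27 to 13.7 CPM in MA-10 cells and from 8.09 to 9.84 CPM in STARKO1 cells. It was also lower without MA-10 replicate 1 (-0.495 ± 0.15, adjusted p = 0.0172).

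Slc25a3, which imports the phosphate for ATP synthesis and also carries copper, had 276, 357 and 285 CPM in MA-10 cells and 355, 331 and 352 CPM in STARKO1 cells. The groups overlapped, and the log2 fold change was 0.18 ± 0.19 (adjusted p = 0.499, edgeR quasi-likelihood test) and 0.20 ± 0.12 without MA-10 replicate 1 (adjusted p = 0.189). The mitoferrins, which import iron, were Slc25a37, with a log2 fold change of -0.19 ± 0.21, and Slc25a28, with 0.32 ± 0.25. Without MA-10 replicate 1, Slc25a28 was at 0.72 ± 0.12 (adjusted p = 0.00125) and Slc25a37 at 0.12 ± 0.14 (adjusted p = 0.452).

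Of the carriers of amino acids and acylcarnitine, 2 of 9 tested genes rose and none fell. Slc25a18 (chr6:120773578-120794336, plus strand), a glutamate carrier best known from brain, had 1.83, 1.21 and 1.23 CPM in MA-10 cells and 3.53, 3.48 and 3.43 CPM in STARKO1 cells, from 14 to 32 counts and from 59 to 82 counts per library. Every STARKO1 library was above every MA-10 library, at a low level throughout. This was a log2 fold change of 1.26 ± 0.27 (SE, adjusted p = 0.0369, edgeR quasi-likelihood test) and 1.59 ± 0.25 without MA-10 replicate 1 (adjusted p = 0.000771). Leaving out any other library gave an adjusted p between 0.0747 and 0.182. Slc25a18 shares 32 bases of exon with Atp6v1e1 on the opposite strand, which had 2196, 8355 and 4269 counts in MA-10 cells and 2204 to 2982 in STARKO1 cells. The partner was highest in MA-10 replicates 2 and 3, where Slc25a18 was lowest. Whether reads of the partner entered the Slc25a18 counts was not tested.

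Slc25a29 (chr12:108825873-108835883, minus strand), which imports arginine and lysine, had 4.07, 2.17 and 2.55 CPM in MA-10 cells and 6.54, 6.19 and 7.53 CPM in STARKO1 cells. The groups did not overlap, and MA-10 replicate 1 was the nearest to STARKO1. The log2 fold change was 1.19 ± 0.28 (SE, adjusted p = 0.0483, edgeR quasi-likelihood test) and 1.60 ± 0.21 without MA-10 replicate 1 (adjusted p = 0.000315). This was the call nearest to the threshold, and leaving out any other library gave an adjusted p between 0.0916 and 0.207. With all 6 libraries it was lost under upper quartile scaling (adjusted p = 0.0592), no filter on low counts (0.0552), at least 10 counts in every library (0.0514), offsets for transcript length (0.0543), library size alone (0.107) and the replicate block (0.0981), and DESeq2 kept it (0.00302).

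The aspartate/glutamate carriers of the malate-aspartate shuttle did not pass the test, although their libraries separated by line. Slc25a12 had 57.7, 46.7 and 49.5 CPM in MA-10 cells and 74.3, 68.9 and 76.7 CPM in STARKO1 cells, and Slc25a13 had 17.9, 12.1 and 11.2 CPM and 20.4, 22.5 and 20.1 CPM. No MA-10 library reached the STARKO1 range in either gene. The log2 fold changes were 0.51 ± 0.15 (adjusted p = 0.0724, edgeR quasi-likelihood test) and 0.61 ± 0.22 (adjusted p = 0.0954), and without MA-10 replicate 1 they were 0.70 ± 0.12 (adjusted p = 0.00102) and 0.94 ± 0.13 (adjusted p = 0.000349). DESeq2 placed Slc25a12 and Slc25a24 past the threshold with all 6 libraries, at adjusted p values of 0.0132 and 0.0164.

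The other amino acid carriers had overlapping groups. The glycine carrier Slc25a38, needed for heme synthesis, had a log2 fold change of 0.85 ± 0.44, the ornithine carrier Slc25a15 one of 0.49 ± 0.31, the branched-chain amino acid carrier Slc25a44 one of 0.45 ± 0.27, the glutamate carrier Slc25a22 one of -0.07 ± 0.26 and the carnitine/acylcarnitine carrier Slc25a20 one of -0.46 ± 0.30. Slc25a2, a second ornithine carrier, had 5, 0 and 0 counts in MA-10 cells and 5, 2 and 6 counts in STARKO1 cells and was not tested. Over the 9 tested genes of this group the median log2 fold change was 0.51, the highest of the role groups, and without MA-10 replicate 1 7 of the 9 were higher at the threshold, Slc25a20 was lower (-0.63 ± 0.15, adjusted p = 0.00535) and Slc25a22 did not pass (0.33 ± 0.15, adjusted p = 0.093). Of the 11939 genes tested with all libraries, 4082 were higher and 3756 lower in that fit.

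The 3 carriers of carboxylates in the table did not pass the test with all 6 libraries. Slc25a1, which exports citrate for fatty acid and cholesterol synthesis in the cytosol, had 73.1, 83.4 and 74.4 CPM in MA-10 cells and 62.4, 68.9 and 69.9 CPM in STARKO1 cells. The lines did not overlap, with a log2 fold change of -0.20 ± 0.15 (adjusted p = 0.338, edgeR quasi-likelihood test) and one of -0.14 ± 0.11 without MA-10 replicate 1 (adjusted p = 0.287). Slc25a10, the dicarboxylate carrier, had 79.1, 131 and 92.3 CPM in MA-10 cells and 83.8, 81.1 and 96.6 CPM in STARKO1 cells. These ranges overlapped, and the log2 fold change was -0.21 ± 0.22 (adjusted p = 0.502), or -0.26 ± 0.16 without MA-10 replicate 1 (adjusted p = 0.169). Slc25a11, the oxoglutarate carrier of the malate-aspartate shuttle, was at 19.4 to 26.1 CPM in MA-10 cells and 26.5 to 28.3 CPM in STARKO1 cells (log2 fold change 0.24 ± 0.17, adjusted p = 0.317), with no overlap between the lines, and it passed the test as higher without MA-10 replicate 1 (0.43 ± 0.12, adjusted p = 0.0163).

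Of the 7 members on the outer membrane or with less well assigned substrates, 1 rose. Slc25a45 (chr19:5877808-5885878, plus strand) had 2.41, 1.56 and 1.85 CPM in MA-10 cells and 5.68, 5.31 and 6.52 CPM in STARKO1 cells, from 18 to 42 counts and from 90 to 132 counts per library. The lowest STARKO1 library was well above the highest MA-10 library. The log2 fold change of 1.57 ± 0.25 (SE, adjusted p = 0.0171, edgeR quasi-likelihood test) was the highest of all carriers, and it was 1.86 ± 0.23 without MA-10 replicate 1 (adjusted p = 0.000238). Without MA-10 replicate 2 the adjusted p was 0.0393, and without MA-10 replicate 3 or a STARKO1 library it was between 0.0825 and 0.120. Slc25a46, which lies in the outer membrane and takes part in mitochondrial fission, had a log2 fold change of 0.19 ± 0.19. The others, Slc25a34, Slc25a35, Slc25a43, Slc25a47 and Slc25a53, lay between -0.39 for Slc25a35 and 0.75 for Slc25a47, and none passed the test. With that MA-10 library, replicate 1, left out, Slc25a47 (1.51 ± 0.42, adjusted p = 0.0127), Slc25a53 (0.999 ± 0.34, adjusted p = 0.0322) and Slc25a34 (0.65 ± 0.24, adjusted p = 0.0393) were higher, and Slc25a35, Slc25a43 and Slc25a46 did not pass. The counts behind 2 of these were low, with 9 and 4 for Slc25a47 and 9 and 8 for Slc25a53 in MA-10 replicates 2 and 3.

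**Figure D3:**
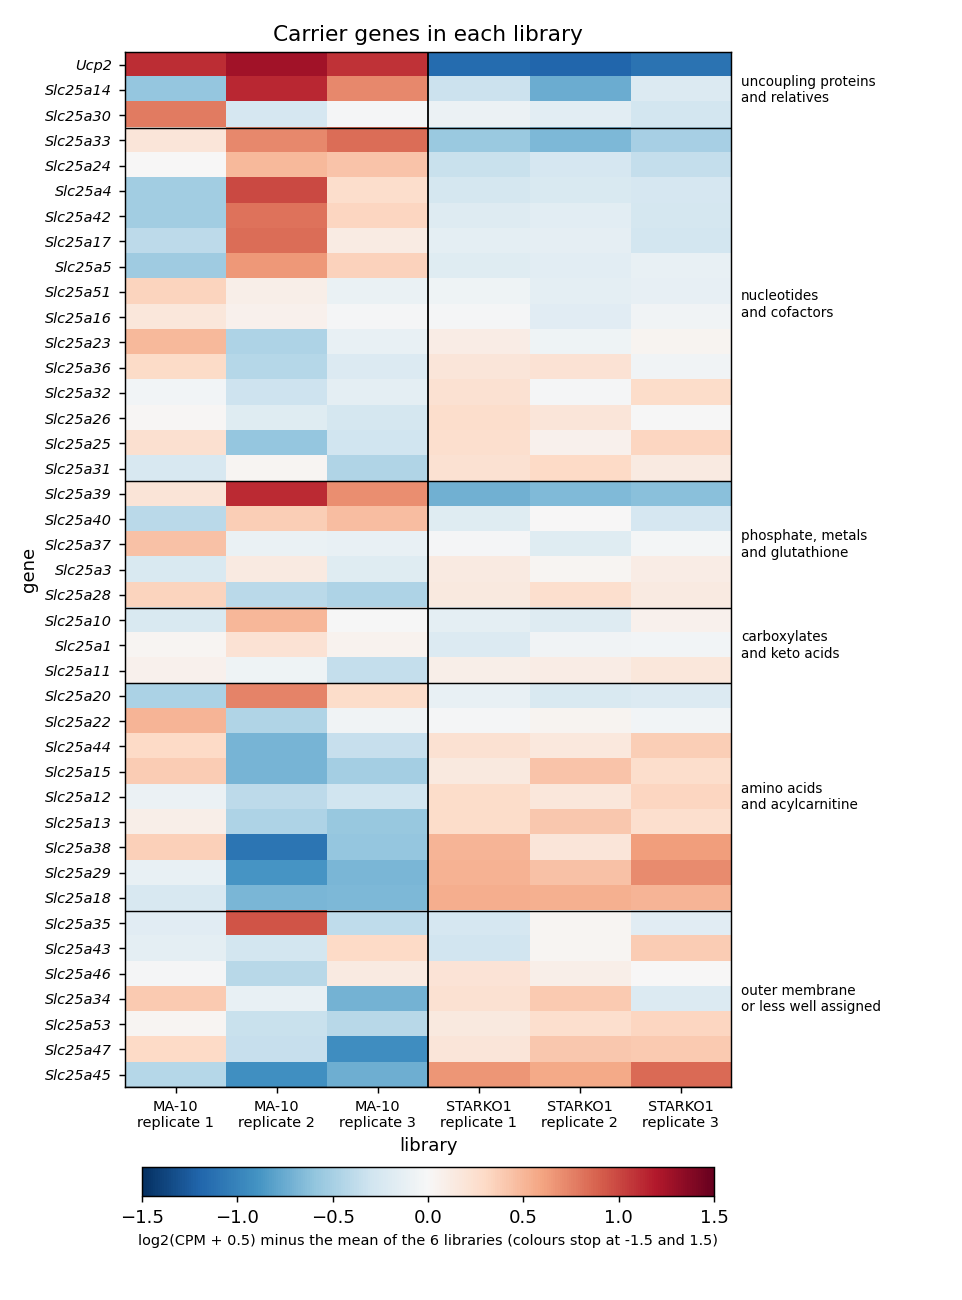
log2(CPM + 0.5) of the 41 tested carriers in each library, less the mean of the 6 libraries, grouped by role and ordered by log2 fold change within a role. Red is above and blue below the gene's mean; the STARKO1 columns resemble each other closely, whereas the MA-10 replicate 1 column often has the opposite color to MA-10 replicates 2 and 3, as in Slc25a4, Slc25a5 and Slc25a38.

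By role, the medians of the log2 fold change were 0.51 for amino acids and acylcarnitine, 0.24 for the less well assigned members, -0.19 for phosphate, metals and glutathione, -0.20 for carboxylates and for nucleotides and cofactors, and -1.25 for the 3 tested uncoupling proteins and relatives. The groups held 9, 7, 5, 3, 14 and 3 tested genes, and with numbers this small the medians are only a description. The same holds for the differentially expressed genes counted per role, beside 4.3% of all genes higher and 4.74% lower. Over the 41 carriers, log2 CPM in MA-10 replicate 1 correlated with the other MA-10 libraries at a Pearson r of 0.945 and 0.964 and with the STARKO1 libraries at 0.965 to 0.968, a description across genes that share their libraries.

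The level of a carrier was compared between genes as CPM per kilobase of the annotated transcript with the longest coding sequence. In MA-10 cells the order was Slc25a4 with 505 ± 254, Slc25a5 with 450 ± 172, Slc25a39 with 244 ± 76.5, Slc25a3 with 228 ± 32.8 and Slc25a33 with 87.0 ± 19.6 CPM per kilobase (SD, n = 3). In STARKO1 cells it was Slc25a5 with 345 ± 8.09, Slc25a4 with 327 ± 4.66, Slc25a3 with 258 ± 9.44, Slc25a39 with 92.9 ± 2.86 and Slc25a10 with 43.1 ± 4.11 CPM per kilobase. Slc25a4 and Slc25a5, and Slc25a39 and Slc25a3, differed by less than an SD in MA-10 cells, whereas in STARKO1 cells the level of Slc25a39 was far below that of Slc25a3. Ucp2 was at 7.34 CPM per kilobase in MA-10 cells and 1.39 in STARKO1 cells, and its annotated transcript of 3988 bases is long for a protein of this family, so a shorter form would raise its level.

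The carriers took 0.257% to 0.285% of all counts in MA-10 cells and 0.287% to 0.292% in STARKO1 cells. These shares did not overlap, but all counts include the 7SL RNAs, which took 14.4% and 6.63% in MA-10 replicates 2 and 3 and at most 2.37% elsewhere. The 3 ADP/ATP carriers made up 35.3%, 53.9% and 47.7% of these counts in the MA-10 libraries and 43.6% to 44.8% in the STARKO1 libraries. In this share of the ADP/ATP carriers the STARKO1 libraries lay within the range that MA-10 cells spanned. The coding sequences of the 43 members had a median length of 960 bases, and 37 had at most 1092 bases. The longest were Slc25a12 and Slc25a13, with 2031 and 2028 bases, then Slc25a25, Slc25a24 and Slc25a23, with 1542, 1425 and 1401 bases, all 5 of which carry a calcium-binding extension. The 6 differentially expressed genes were all among the shorter ones, and the 5 with the extension had log2 fold changes from -0.64 to 0.61.

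**Figure D4:**
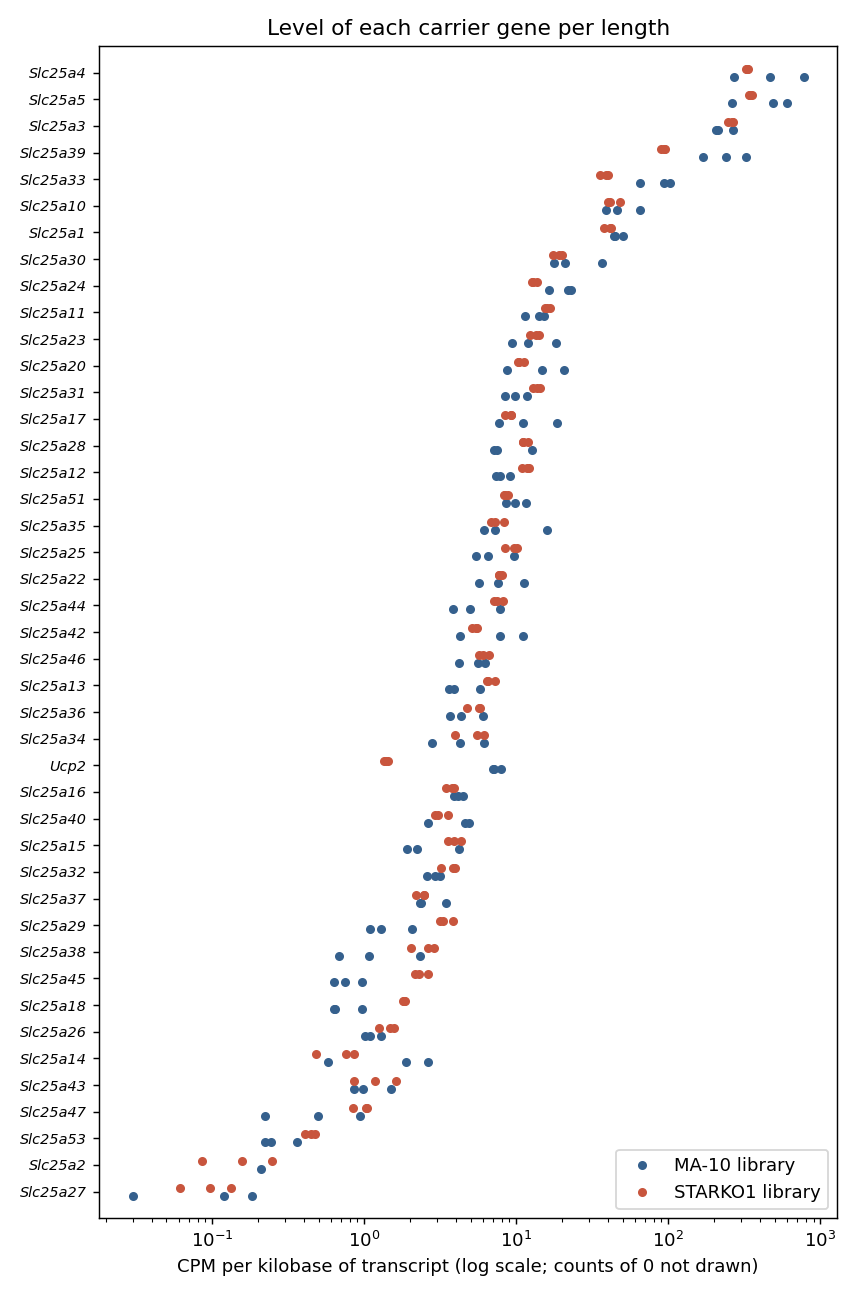
CPM per kilobase of transcript of all 43 carriers on a log scale, each point a library (MA-10 in blue, STARKO1 in red), ordered by the mean of both lines. The top 4 genes, Slc25a4, Slc25a5, Slc25a3 and Slc25a39, are above the rest in both lines, and Slc25a2 and Slc25a27 are at the bottom.

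Related carriers were compared within each library as a ratio of their counts, which does not depend on how libraries are scaled. Of 11 pairs, 6 had ratios that did not overlap between the lines. Among single genes 42.5% of all tested did not overlap, but this is a share of scaled levels. No such share was computed for ratios of other gene pairs. Each of the 6 had an exact two-sided permutation p of 0.1 (adjusted p = 0.183 over the pairs). This is the smallest that 3 against 3 libraries can give, so none could pass 0.05. The pairs with Slc25a33, Slc25a18, Slc25a45 and Slc25a39 each hold a differentially expressed carrier, and the groups of Slc25a24 did not overlap either, so these ratios largely restate the single genes. Slc25a33 had 3.87, 9.30 and 8.56 times the counts of Slc25a36 in MA-10 cells and 2.47, 2.23 and 3.06 times in STARKO1 cells, a difference of -1.40 in the mean log2 ratio. Slc25a22 had 17.0, 12.7 and 16.7 times the counts of Slc25a18 in MA-10 cells and 6.13, 6.48 and 6.22 times in STARKO1 cells, a difference of -1.29. Slc25a22 had the higher counts in every library, and its own log2 fold change was -0.07 ± 0.26.

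Slc25a44 had 11.5, 8.62 and 9.37 times the counts of Slc25a45 in MA-10 cells and 4.68, 4.78 and 4.49 times in STARKO1 cells, a difference of -1.07. For Slc25a39 and Slc25a40 the ratios were 39.2, 42.5 and 29.5 in MA-10 cells and 17.7, 15.9 and 19.8 in STARKO1 cells, a difference of -1.04. For Slc25a24 and Slc25a25 they were 1.76, 4.40 and 3.48 in MA-10 cells and 1.38, 1.68 and 1.297 in STARKO1 cells, a difference of -1.06. In these pairs the first gene had the higher counts in every library. Without MA-10 replicate 1 the differences were -1.80 for Slc25a33 and Slc25a36, -1.21 for Slc25a22 and Slc25a18, -0.95 for Slc25a44 and Slc25a45, -0.995 for Slc25a39 and Slc25a40, and -1.44 for Slc25a24 and Slc25a25.

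The mitoferrin pair had a difference of the opposite sign, and neither gene passed the test with all 6 libraries. Slc25a28 was at 1.34, 1.17 and 1.14 times the counts of Slc25a37 in MA-10 cells and 1.64, 1.98 and 1.63 times in STARKO1 cells, a difference of 0.53, or 0.60 without MA-10 replicate 1. The ratios of Slc25a4 to Slc25a5 were 1.60, 2.00 and 1.49 in MA-10 cells and 1.49, 1.504 and 1.44 in STARKO1 cells and overlapped (difference -0.19, exact permutation p = 0.2). Those of Slc25a12 to Slc25a13, Slc25a10 to Slc25a11, Slc25a14 to Slc25a30 and Slc25a15 to Slc25a2 overlapped as well, with exact permutation p values of 0.4, 0.3, 0.5 and 0.3. The differences of these 5 pairs without MA-10 replicate 1 were -0.23, -0.24, -0.68, -1.66 and -1.5 in the order named. The last rests on the 0.5 added to each count, because Slc25a2 had 0 counts in MA-10 replicates 2 and 3. Ucp2 could not be paired with Ucp3, which was not in the table.

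**Figure D5:**
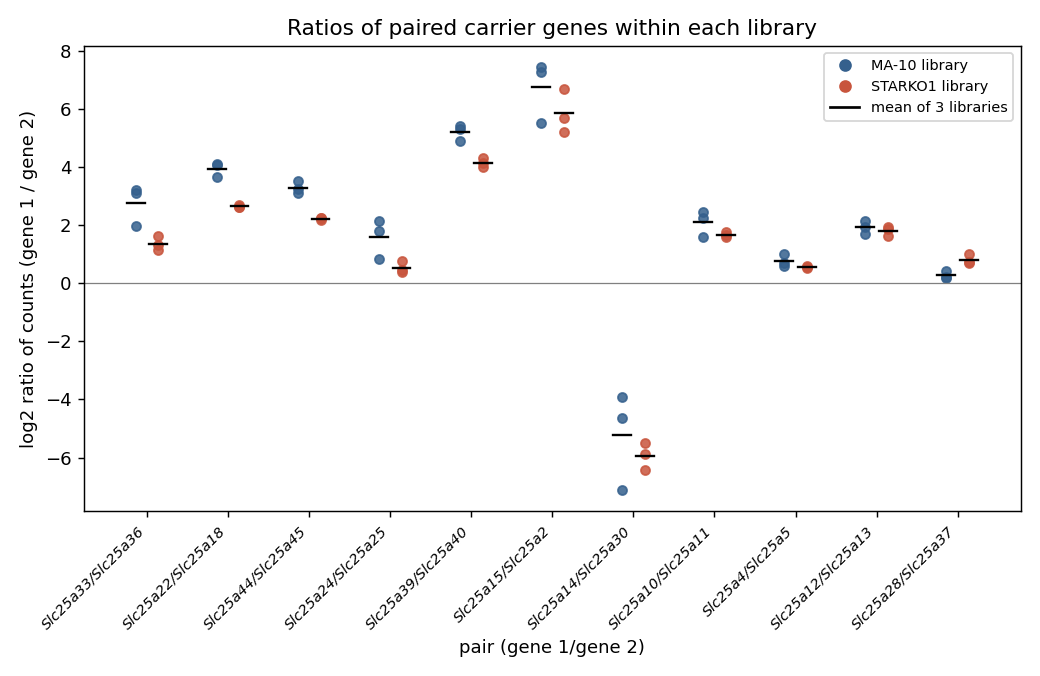
log2 ratio of the counts of the first to the second gene of each of 11 pairs in each library, MA-10 in blue and STARKO1 in red, with a black line at the mean of 3 libraries. The pairs are ordered by the difference between the lines, from Slc25a33/Slc25a36 at -1.40 to Slc25a28/Slc25a37 at 0.53, and 6 of them do not overlap.

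Genes that work beside the carriers were compared by the same test, and 1 of the 44 in 6 lists passed it, against 9.04% of all genes tested. None of the 18 inner membrane transporters outside the family, such as the pyruvate carrier and the calcium uniporter, passed it. Nor did the 2 carrier-like outer membrane proteins, the 10 genes of carrier import by TIM22, the 7 enzymes of the malate-aspartate and citrate shuttles or the 2 of the glycerol phosphate shuttle. The median log2 fold changes of these lists were -0.21, 0.43, 0.05, -0.03 and 0.04. Some single genes had large estimates that did not pass. The import genes Timm8b and Timm10b were at -2.06 ± 0.62 (adjusted p = 0.0718, edgeR quasi-likelihood test) and -2.02 ± 0.59 (adjusted p = 0.0674). Mpc1 of the pyruvate carrier was at -1.46 ± 0.44 (adjusted p = 0.0724). In all, 5 import genes lay above 0 and 5 below, and 8 inner membrane transporters above and 10 below. Of the 5 genes of the carnitine shuttle, with a median of -0.06, 1 rose. This was Cpt1a, which starts the import of long-chain fatty acids ahead of Slc25a20, with 72.5, 34.2 and 40.0 CPM in MA-10 cells and 109, 119 and 117 CPM in STARKO1 cells. The groups did not overlap, and the log2 fold change was 1.23 ± 0.30 (SE, adjusted p = 0.0494, edgeR quasi-likelihood test) and 1.72 ± 0.13 without MA-10 replicate 1 (adjusted p = 2.81e-05). Leaving out any other library gave Cpt1a an adjusted p between 0.0931 and 0.191. Without MA-10 replicate 1, 65.7% of all genes tested were differentially expressed. In that fit 6 inner membrane transporters were higher and 8 lower in STARKO1 cells, as were 3 and 4 of the import genes. Of the malate-aspartate and citrate shuttle enzymes 2 were higher and 2 lower, and of the carnitine shuttle genes 3 and 1. Also higher were 1 outer membrane protein and 1 gene of the glycerol phosphate shuttle.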

How the data were processed

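Total RNA libraries of MA-10 and STARKO1 cells (3 each) were made with a stranded SMARTer pico kit. Per the labels, processing used STAR 2.6.1d, Partek and the mm10 genome, as listed in the submitters' processing notes. The counting program and its use of strand are not given in the sources used here. The authors deposited an estimated count per gene, without normalization and with libraries kept apart; in 54.1% of genes at least 1 library had a fractional value.

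The rounded values were fitted with edgeR 4.0.16 under R 4.3.3 (filterByExpr, TMM scaling, glmQLFit and glmQLFTest), with Benjamini-Hochberg adjustment over all 11939 genes tested and a threshold of 0.05. The SE is the log2 fold change divided by the square root of the F statistic. The common biological coefficient of variation was 0.291, and at 14114351 to 19530062 counts per library the spread between libraries, and not the depth, limited the precision for all but the lowest genes. Pair ratios used log2 of counts plus 0.5 and exact permutation tests over libraries. Gene positions and transcript lengths came from GENCODE M21 on GRCm38, where all 43 carriers were found, and promoters from RefSeq on GRCm38. Figures were drawn with matplotlib 3.10.9, and the permutation tests used scipy 1.17.1 in Python 3.11.15, with numpy 2.4.6 and pandas 2.3.3 for tables. The scripts were tested on simulated data.

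Of the genes matched by the rule, 1 is not reported here. The carriers and the gene lists were chosen with earlier results of these data known. Values per library are given for differentially expressed carriers, the ADP/ATP carriers, the uncoupling proteins and the 5 other carriers of highest mean CPM, and remaining members were summarised; a few further values were added after they were seen. Alternatives were DESeq2 1.42.0, upper quartile scaling, library size alone, 2 other filters on low counts, a replicate block, a pseudocount of 1, leaving out each library and, chosen after seeing the data, offsets for transcript length.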

Additional observations from a re-analysis of the deposited data

How the results depend on the processing

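The number of differentially expressed carriers, 6 of 41 (3 higher, 3 lower), was 5 with upper quartile scaling, no filter, at least 10 counts in every library or transcript length offsets, the gene lost being Slc25a29, and 8 with DESeq2, which included the same 6. It was 2 with library size alone (0 higher, 2 lower). The labels number the libraries 1 to 3 in both lines, but same-numbered libraries did not deviate together (r of -0.03, 0.09 and -0.02), and a replicate block left 1 carrier (0 higher, 1 lower), Ucp2, and 234 of 11939 genes in all. Leaving out each library in turn gave 1 to 29 carriers, 0 to 18 higher and 1 to 11 lower, the most without MA-10 replicate 1; a line left with 2 libraries shared its spread with the other. Ucp2 passed in every one of these fits. Over all genes, the count of 1079 became 829 with upper quartile scaling, 330 with library size alone, 3395 with DESeq2, 695 with at least 10 counts and 89 to 7990 without 1 library. Library size alone moved the median of all genes from -0.05 to 0.38, and the share of higher genes among those differentially expressed from 47.5% to 63.6%; DESeq2 gave 38.6%.

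None of the 6 carriers changed direction under any setting, nor did any pair difference with a pseudocount of 1 or without a library. The carriers that did had adjusted p values of 0.272 to 0.993 in the comparison of all 6 libraries (edgeR). With library size alone, the log2 fold change became 0.25 for Slc25a1, 0.29 for Slc25a10, 0.27 for Slc25a16, 0.081 for Slc25a17, 0.10 for Slc25a20, 0.28 for Slc25a22, 0.15 for Slc25a35, 0.19 for Slc25a37, 0.17 for Slc25a40, 0.041 for Slc25a42, 0.16 for Slc25a5 and 0.17 for Slc25a51. Upper quartile scaling gave 0.052 for Slc25a22, and length offsets gave 0.0475 for Slc25a1, -0.022 for Slc25a23 and 0.17 for Slc25a5; the cause was not tested. Leaving out each library gave -0.28 to 0.024 for Slc25a10, -0.27 to 0.33 for Slc25a22, -0.19 to 0.40 for Slc25a23, -0.61 to 0.047 for Slc25a30, -0.0033 to 0.65 for Slc25a34, -0.63 to 0.15 for Slc25a35, -0.29 to 0.12 for Slc25a37 and -0.14 to 0.41 for Slc25a43.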
